A study of Mus musculus with 40 samples.

Results

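The 10 genes described here take up, store or export iron or set the level of the iron hormone hepcidin. They are Hamp, Hamp2, Tfrc, Tfr2, Trf, Fth1, Ftl1, Slc40a1, Bmp6 and Hfe, taken by symbol in the probe annotation of the array with all their probe sets. No threshold on a measured value was applied, but the genes were chosen with earlier results of these data known. Of these genes, 8 have probe sets of their own, 16 in all, among the 18193 genes that the annotation names by such a probe set. The 4 probe sets of Trf and Ftl1 also carry the symbol of another gene, and their values are given separately. Messenger RNA levels came from the livers and kidneys of 20 male B6C3F1/Crl mice, bred from C57BL/6 males and C3H/He females, on 40 Affymetrix Mouse430_2 arrays. The mice arrived at an age of 29 to 32 days and acclimatised for 5 days. Phenobarbital (PB), a barbiturate that induces drug-metabolising enzymes in the liver through the nuclear receptor CAR, was then given to 10 mice at 0.05% (w/v) in the water for 28 days, and the other 10 mice were controls. The 4 groups are thus control liver, PB liver, control kidney and PB kidney, with 10 arrays each and both tissues from the same mice, and no allele was altered in any of them.

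Hepcidin, the product of Hamp, is a peptide hormone made by hepatocytes that binds the iron exporter ferroportin (Slc40a1) on macrophages, hepatocytes and enterocytes and causes its degradation. Its transcription follows iron through BMP6, which is released by liver endothelial cells and acts through SMAD proteins, and through HFE and transferrin receptor 2 (Tfr2), which sense iron-loaded transferrin, while interleukin 6 raises it through STAT3. Cells take up transferrin-bound iron by transferrin receptor 1 (Tfrc) and store it in ferritin (Fth1 and Ftl1), and iron regulatory proteins lengthen the life of Tfrc mRNA and block ferritin translation when iron in the cell is low.

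After PB, transferrin receptor 1 mRNA rose in liver by about 1.81-fold, Hfe rose by 1.35-fold and the ferritin heavy chain gene Fth1 rose by 1.15-fold at 1 of its 2 probe sets, while hepcidin mRNA did not pass the test at either probe set. None of the members was called in kidney, and the PB effects differed between the tissues, by a test of the difference itself, at both tested probe sets of Tfrc and at 1 of 2 probe sets each of Hfe and Fth1. The Fth1 difference was not called with arrays centred on their median. Ferroportin mRNA was at 1388 ± 343 (SD, n = 10) in control livers and 1354 ± 192 (SD, n = 10) in PB livers. RNA was extracted from sections of whole tissue, so that fewer cells of a type and less RNA per cell cannot be told apart in any of these values.

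The values are MAS5 signals, a linear measure of brightness that the authors scaled to a trimmed mean of 150 on each array. A probe set was tested where its mean was at least 50 in one of the groups compared, signals below 1 were raised to 1, and limma was run on the log2 values. Probe sets are called here when their p, adjusted by Benjamini and Hochberg over all probe sets tested, fell under 0.05. Where a group mean lay under 50, the fold is given as at least the higher mean over 50. The median signal of an array lay between 30.0 and 37.2. With each array centred on its median instead, the share of higher among all calls went from 47.8% to 36.8% in liver, from 55% to 72.3% in kidney and from 50.4% to 32.3% for the difference between tissues. Hepatocyte markers matched the labels, with albumin (Alb) at 19890 on average in control livers and 332 in control kidneys, although the mRNA of transthyretin (Ttr) was also high in kidney. The 6 kidney tubule markers summed to at most 383 in livers other than that of control mouse 5, where they summed to 1589, against at least 37025 in kidneys. The array of this liver was kept, and no call in the liver comparison that is reported for Tfrc, Fth1 or Hfe probe set 1422645_at was lost without it.

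**Figure D1:**
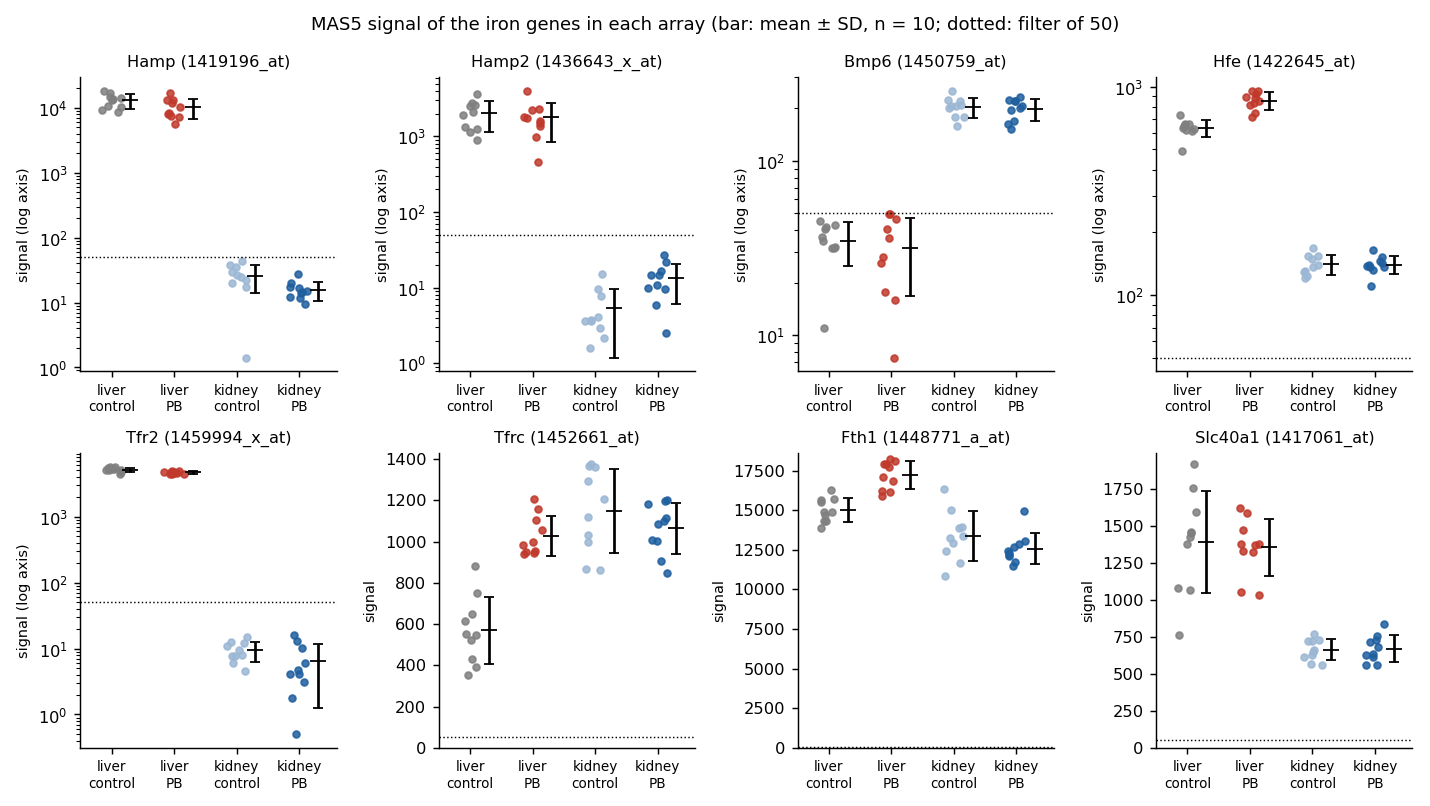
MAS5 signal of the highest probe set of each of the 8 genes with a probe set of their own, by group. Each point is 1 array, the bars give mean and SD (n = 10), the dotted line marks the filter of 50, the axes of Hamp, Hamp2, Bmp6, Hfe and Tfr2 are logarithmic and the others start at 0. The Tfrc signals of all 10 PB livers, from 940.2 to 1205.2, lay above those of all control livers, which ended at 881.1.

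In liver, 13 of the 16 member probe sets were tested. Of these, 5 were called higher after PB and 1 lower, while 7 were not called. Among the 5, Tfrc 1422966_a_at passed the filter only through the PB group. Over all 18981 probe sets tested in liver, 5.88% were called higher and 6.43% lower. With limma, 8 of the 13 had an unadjusted p under 0.05, and the share of all probe sets at that threshold was not computed. The median log2 difference was 0.00 over the 13 member probe sets and -0.013 over all. By gene, 7 members were tested, of which Tfrc, Hfe and Fth1 had a probe set called higher and Tfr2 had one called lower. The 3 probe sets that were not tested, 1 each of Hamp2, Tfrc and Bmp6, had means under 50 in both liver groups.

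Hepcidin is described first because it is the output of this system. The mouse has 2 hepcidin genes, of which Hamp encodes the iron-regulating hormone. The RefSeq promoter table (assembly GRCm38.p6) holds windows for 8 of the 10 members, and within the 250 bases before the annotated start the windows of Hamp and Hamp2 were identical at 227 of 247 aligned bases (91.9%). The last 180 bases before the start are shown for both genes, because they carry the letters in which the paralogs differ. Capitals mark every match on either strand to GGCGCC, the core of the BMP response element, to TTCNNNGAA, the STAT site, to ACGTG, the core of the hypoxia response element, or to AGGTCA, a nuclear receptor motif.
Hamp, chr7:30944030-30944209, minus strand: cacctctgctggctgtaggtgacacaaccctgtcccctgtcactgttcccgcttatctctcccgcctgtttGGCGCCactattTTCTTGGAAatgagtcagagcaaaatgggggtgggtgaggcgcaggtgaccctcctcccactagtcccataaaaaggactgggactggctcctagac
Hamp2, chr7:30924182-30924361, minus strand: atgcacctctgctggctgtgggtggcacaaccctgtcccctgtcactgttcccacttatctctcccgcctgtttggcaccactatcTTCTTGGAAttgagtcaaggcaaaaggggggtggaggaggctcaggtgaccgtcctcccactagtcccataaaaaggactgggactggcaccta

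The letters GGCGCC occurred in the Hamp window, 109 bases before the start, and not in the Hamp2 window, whereas TTCNNNGAA occurred in both. Of all 32851 windows in the table, 9.59% held GGCGCC and 7.02% held TTCNNNGAA. A match is a description of the letters and not evidence of a site.

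Hamp mRNA, read by probe set 1419196_at, ranged from 8674.6 to 18387.1 with a median of 13599 in the 10 control livers. In the 10 PB livers it ranged from 5700.4 to 17111.2 with a median of 9294. The groups overlapped over most of their range, although 5 PB livers lay below every control liver. The means were 12947 ± 3297 and 10201 ± 3542 (SD, n = 10 each), a log2 difference of -0.38 (SE 0.18, 95% confidence interval -0.74 to -0.02) that did not pass adjustment in limma (adjusted p = 0.168). Over 34 alternative fits of this probe set the adjusted p lay between 0.0669 and 0.488.

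The other Hamp probe set, 1419197_x_at, read 11844 ± 3069 in control and 9094 ± 3716 in PB livers (SD, n = 10 each). Its log2 difference was -0.44 (SE 0.20, 95% confidence interval -0.85 to -0.04, adjusted p = 0.147 from limma). Over the alternative fits of this probe set the adjusted p lay between 0.0519 and 0.262. Hamp2 probe set 1436643_x_at read from 884.6 to 3676 in control livers and from 465.5 to 4045.4 in PB livers. The PB range enclosed the whole control range, with a log2 difference of -0.22 (95% confidence interval -0.83 to 0.39, limma adjusted p = 0.686). The second Hamp2 probe set, 1456289_at, stayed under 50 in every array. Identifiers that end in _x_at or _s_at mark probe sets that can take up related transcripts, so the split of signal between the hepcidin genes is uncertain.

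Hamp and Hamp2 deviated together from their group means across the 20 livers. Pearson's r of the log2 deviations was 0.69 (permutation p = 0.00145, adjusted p = 0.0087 over 6 relations) and Spearman's rho was 0.63 (permutation p = 0.0042, adjusted p = 0.0252). Without the 2 livers farthest from the median of Hamp, PB livers 12 and 15, r was 0.47 and no longer passed (adjusted permutation p = 0.287). It was 0.59 within control livers and 0.75 within PB livers, with adjusted permutation p of 0.234 and 0.0635 at n = 10 each. The part of shared hybridisation in this relation was not tested.

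**Figure D2:**
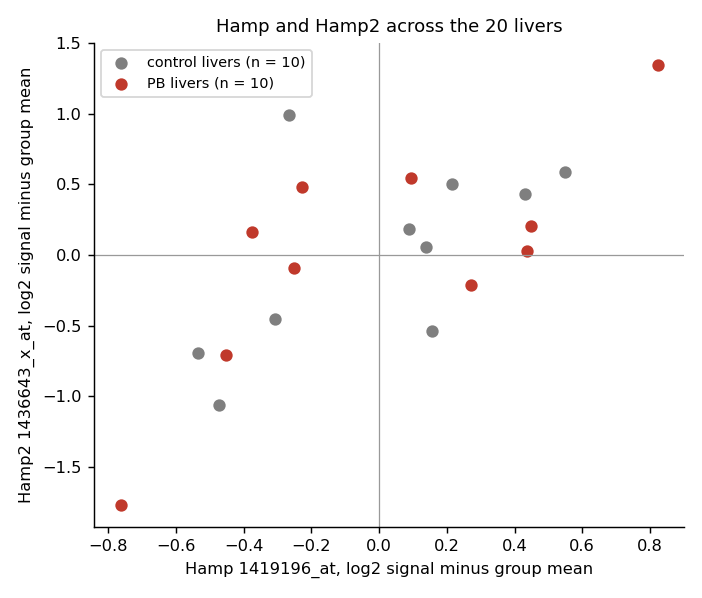
Deviation of each liver from its group mean in log2 signal, Hamp probe set 1419196_at on the horizontal and Hamp2 probe set 1436643_x_at on the vertical axis. Points are single livers, grey for control and red for PB (n = 10 each); the PB livers include the points at both lower left and upper right, and r over all 20 livers was 0.69.

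The other 5 relations did not pass. Hamp against its activator Bmp6 gave r = 0.04, against the BMP target Id1 0.36, against the acute phase gene Saa1 -0.12 and against Tfrc -0.14, and Tfrc against Fth1 gave 0.12, with adjusted permutation p between 0.316 and 0.881 (n = 20). For Hamp and Id1, r was 0.75 within control livers and -0.06 within PB livers, and this difference was not tested. Bmp6 signals were under 50 in all livers. Among the probe sets tested in liver, the genes whose deviations from the group mean were most like those of Hamp over the 20 livers were Rbmx (r = 0.76), Champ1 (0.75) and Ythdc1 (0.73), a description without a test.

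Regulators of hepcidin differed among themselves. Hfe, whose loss causes hereditary hemochromatosis, rose in PB livers. At probe set 1422645_at it ranged from 493.5 to 728.2 (median 643) in control livers and from 712.7 to 958.8 (median 870.4) in PB livers. Only the lowest PB liver reached into the control range, and the other 9 lay above all controls. The means were 635 ± 59.3 and 857 ± 81.8 (SD, n = 10 each), a log2 difference of 0.43 (SE 0.06, limma adjusted p = 6.9e-05) or 1.35-fold. Leaving out each array in turn kept the adjusted p between 2.76e-05 and 0.000216.

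The dimmer Hfe probe set, 1450702_at, gave the same size of change, from 76.7 ± 16.3 to 104 ± 21.6 (SD, n = 10 each) with a log2 difference of 0.44 (SE 0.13, limma adjusted p = 0.0309). Here 5 of 10 PB livers lay above all controls. This call was lost without the filter, with median centring, and in 7 of 20 fits that left out 1 array (control livers 1, 3, 5 and 6, PB livers 12, 16 and 18), in which the adjusted p lay between 0.0172 and 0.0617 over all 20.

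Transferrin receptor 2, the second sensor, moved little. Probe set 1459994_x_at ranged from 4428.6 to 5672.1 in control livers and from 4371.5 to 4951.7 in PB livers. The ranges overlapped, with 1 PB liver below all controls. The means were 5160 ± 374 and 4681 ± 194 (SD, n = 10 each), a log2 difference of -0.14 (SE 0.04, limma adjusted p = 0.0389), and the other probe set, 1425381_a_at, gave -0.06 (95% confidence interval -0.19 to 0.07, adjusted p = 0.572). The call at 1459994_x_at was lost in 3 of 14 alternative fits and in 12 of 20 fits without 1 array (control livers 1, 3, 4, 5, 6, 7 and 10, PB livers 13, 14, 18, 19 and 20; adjusted p from 0.0105 to 0.0743).

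Bmp6, the iron-responsive ligand, was read at 34.8 ± 9.71 in control and 31.7 ± 15.0 in PB livers (SD, n = 10 each). No liver reached 50, so the gene was not tested there. The markers of endothelial cells, which release this ligand, summed to 1733 to 2342 in control livers, with a median of 2200.4, and to 1639 to 2206 in PB livers, with a median of 1799. Of these markers 1 of 6 tested fell, the scavenger receptor gene Stab2, from 525 ± 56.1 to 404 ± 33.5 (SD, n = 10 each, limma adjusted p = 0.000331), and their part in the liver values was not tested.

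Tfrc, the receptor through which cells import transferrin-bound iron, showed the largest log2 difference of the member probe sets that were called. Probe set 1452661_at ranged from 352.5 to 881.1 with a median of 548 in control livers. In PB livers it ranged from 940.2 to 1205.2 with a median of 991. Every PB liver lay above every control liver, which held for 1.02% of all probe sets tested in liver. The means were 569 ± 163 and 1030 ± 96.9 (SD, n = 10 each), a log2 difference of 0.90 (SE 0.13, 95% confidence interval 0.64 to 1.16, limma adjusted p = 2.63e-05) or 1.81-fold.

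The second tested Tfrc probe set, 1422966_a_at, ranged from 30.8 to 68.1 in control livers and from 60.7 to 104.4 in PB livers. Of the PB livers, 9 of 10 lay above all controls. The log2 difference was also 0.90 (SE 0.15, limma adjusted p = 0.000195), and since the control mean of 45.6 was under 50 the rise is given as at least 1.67-fold. The third probe set, 1422967_a_at, was under 50 in every array and was not tested, with means of 9.98 in control and 26.4 in PB livers. The calls at both tested probe sets were kept in all 20 fits that left out 1 array and in all other alternatives in which the probe set was tested. Probe set 1422966_a_at passed the filter of 50 only through the PB group and was not tested with a filter at 100.

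**Figure D3:**
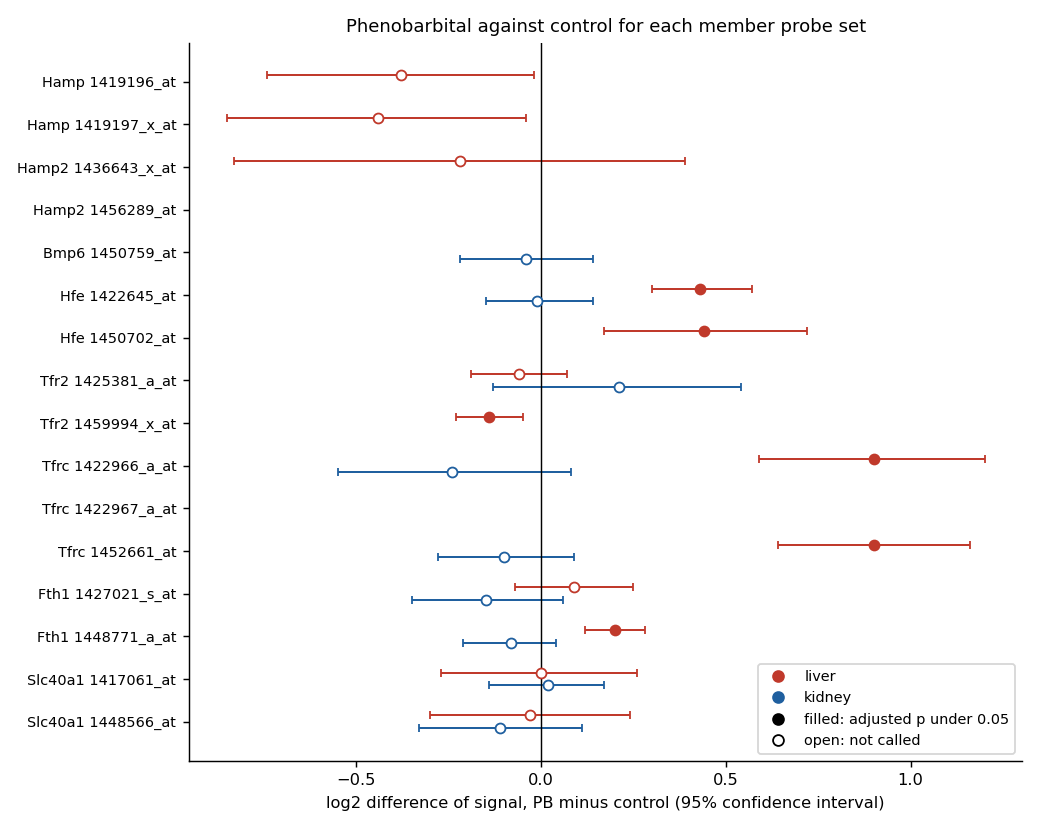
Log2 difference of signal between PB and control mice for the 16 member probe sets, with 95% confidence intervals, in liver (red) and kidney (blue); filled points passed an adjusted p of 0.05 and probe sets under the filter have no point. The Tfrc points at 0.90 and the Hfe points at 0.43 and 0.44 in liver lie to the right of 0, and all kidney points are open.

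The Tfrc promoter window is shown because this gene rose most among the members. Its last 180 bases before the start are printed with the same capitals as above.
Tfrc, chr16:32608716-32608895, plus strand: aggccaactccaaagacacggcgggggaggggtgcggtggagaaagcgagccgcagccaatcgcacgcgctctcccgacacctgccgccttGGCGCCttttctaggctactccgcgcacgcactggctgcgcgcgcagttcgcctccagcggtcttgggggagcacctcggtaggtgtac

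This window held GGCGCC, 89 bases before the start, and a second annotated window of Tfrc held ACGTG, as did windows of Tfr2 and Bmp6, against 16.6% of all windows. No window of a member held AGGTCA, which 14.0% of all windows did. The genes whose deviations were most like those of Tfrc over the 20 livers were Copg2 and Tfpi (r = 0.75 each) and Ywhae (0.73), again as a description.

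In control mice the liver held less Tfrc mRNA than the kidney, and after PB this gap was smaller. The liver signal exceeded that of the same animal's kidney in 1 of 10 control mice, with a median ratio of liver to kidney of 0.465. After PB it did so in 3 of 10 mice, with a median ratio of 0.954. Kidney signals were 1148 ± 202 in control and 1064 ± 123 in PB mice (SD, n = 10 each), with overlapping ranges. The test of this shift compares the PB effects of the tissues, which differed by 1.00 on the log2 scale (SE 0.16, limma adjusted p = 4.75e-05) at probe set 1452661_at and 1.13 (SE 0.22, adjusted p = 0.000535) at 1422966_a_at.

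**Figure D4:**
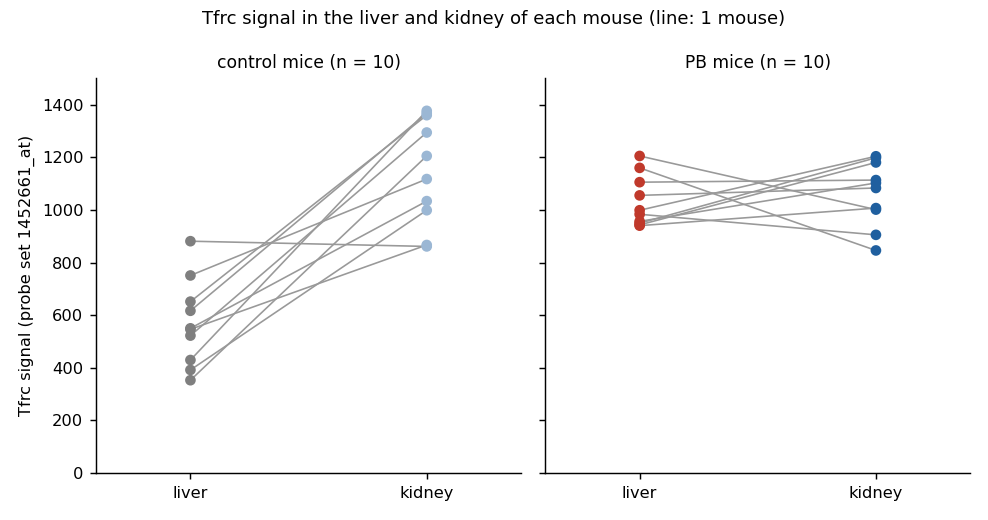
Tfrc signal (probe set 1452661_at) in the liver and kidney of each mouse, with a line joining the tissues of 1 mouse; control mice are on the left and PB mice on the right (n = 10 each). Lines rise from liver to kidney in all but 1 control mouse, whereas the liver and kidney points of PB mice cover much the same range.

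Ferritin genes were among the brightest on the arrays. Fth1, the heavy chain with ferroxidase activity, ranged from 13844.7 to 16245.3 (median 14887) in control livers and from 15875.5 to 18211.5 (median 17405) in PB livers at probe set 1448771_a_at. Of the PB livers, 7 of 10 lay above all controls. The means were 15013 ± 752 and 17203 ± 885 (SD, n = 10 each), a log2 difference of 0.20 (SE 0.04, limma adjusted p = 0.00139) or 1.15-fold. The second probe set, 1427021_s_at, gave 11719 ± 1288 and 12534 ± 1994 (SD, n = 10 each) with a log2 difference of 0.09 (95% confidence interval -0.07 to 0.25, adjusted p = 0.491), so that the probe sets did not give the same call.

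The 3 probe sets annotated to both Ftl1, the ferritin light chain, and its pseudogene Ftl1-ps2 cannot be assigned to either. In PB livers 1418364_a_at was higher, at 11836 ± 1114 against 10324 ± 819 (SD, n = 10 each, log2 difference 0.20, limma adjusted p = 0.0199), with 6 of 10 PB livers above all controls. The other 2 gave log2 differences of 0.44 (adjusted p = 0.051) and 0.13 (adjusted p = 0.0925). The probe set annotated to Trf, plasma transferrin, and to Srprb, a subunit of the signal recognition particle receptor, read 18949 ± 2436 in control and 18141 ± 1926 in PB livers (SD, n = 10 each, adjusted p = 0.638), with overlapping ranges.

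Slc40a1, the iron exporter and target of hepcidin, gave no call. Probe set 1417061_at ranged from 763.6 to 1919.4 in control livers and from 1034.1 to 1622 in PB livers, so that the control range enclosed the PB range. The log2 difference had a 95% confidence interval of -0.27 to 0.26 (limma adjusted p = 0.986), and that of 1448566_at one of -0.30 to 0.24 (adjusted p = 0.917). Markers of Kupffer cells, the liver macrophages that recycle iron, summed to 2315 to 4139 in control and 1825 to 4246 in PB livers, and 0 of 7 tested were called.

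In kidney, 9 member probe sets of 6 genes were tested and none was called in either direction, where 1.79% of all 19229 probe sets tested were called higher and 1.47% lower. With limma, 0 of the 9 had an unadjusted p under 0.05, and Student's t, on either scale, and Welch's t also called 0. The widest shift was in Tfrc 1422966_a_at, at 135 ± 31.2 in control and 117 ± 31.3 in PB kidneys (SD, n = 10 each), with a log2 difference of -0.24 (95% confidence interval -0.55 to 0.08). For Hfe 1422645_at the interval was -0.15 to 0.14 and for Bmp6 it was -0.22 to 0.14, around signals of 141 and 203 in control kidneys. Hamp and Hamp2 stayed under 50 in all 20 kidneys and were not tested there. The shared probe sets of Trf and Ftl1, not among the 9, were not called in kidney. For Ftl1 1422301_at the means were 572 in control and 496 in PB kidneys, with an interval of -0.38 to -0.05 (limma adjusted p = 0.149).

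The difference of the PB effect between the tissues was tested over all 40 arrays for 14 member probe sets, of which 4 were called as more positive in liver and 0 as more negative. Over all 21866 probe sets these shares were 3.13% and 3.08%. This fit left out the animal and treated the liver and kidney of a mouse as independent. With limma, 6 of the 14 had an unadjusted p under 0.05, and the share of all probe sets at that threshold was not computed. Besides both Tfrc probe sets, Hfe 1422645_at was called, with a difference of 0.44 on the log2 scale (SE 0.09, limma adjusted p = 0.00235), as was Fth1 1448771_a_at with 0.28 (SE 0.07, adjusted p = 0.0122). The second probe sets of these genes were not called, with 0.52 for Hfe 1450702_at (adjusted p = 0.181) and 0.24 for Fth1 1427021_s_at (adjusted p = 0.323). The Fth1 call was lost with arrays centred on the median (0.23, adjusted p = 0.122). The tissue difference of Hamp2 1436643_x_at was -1.60 (adjusted p = 0.0583) and passed with the animal as a fixed block (adjusted p = 0.0181) or a random block (adjusted p = 0.0452), but it rests on kidney signals of 5.44 in control and 13.4 in PB mice, and with signals under 50 set to 50 it was -0.22 (adjusted p = 0.741). The Ftl1 probe sets 1418364_a_at (0.28, adjusted p = 0.0171) and 1422301_at (0.66, adjusted p = 0.0168), shared with other symbols, were also called. At 1422301_at the log2 difference after PB was 0.44 in liver and -0.22 in kidney, neither of them called.

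Levels without drug were also compared between the tissues. Of 14 probe sets tested between liver and kidney of control mice, 10 were higher in liver and 3 were lower, while over all 21188 probe sets 35.0% were higher and 43.2% lower. The tested Hamp, Hamp2 and Tfr2 probe sets and Hfe 1450702_at had kidney means under 50 and passed the filter only through liver. Tfrc 1422966_a_at and Bmp6 passed it only through kidney, so for all of these the filter fixed the direction of the means. Hamp was at least 259-fold higher in liver at 1419196_at, Hamp2 at least 40.4-fold and Tfr2 at least 103-fold at 1459994_x_at, each against kidney signals under 50. The other tested probe sets gave at least 237-fold for Hamp (1419197_x_at) and at least 42.2-fold for Tfr2 (1425381_a_at). Hfe at 1422645_at was 4.52-fold higher in liver, with a log2 difference of 2.18 (SE 0.07, limma adjusted p = 1.68e-18), and no liver overlapped a kidney. The share of all probe sets without overlap between the tissues was not computed. Slc40a1 was 2.1-fold and 1.99-fold higher at its probe sets, and Hfe at least 1.53-fold at 1450702_at.

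The members that were lower in liver were Tfrc, by 2.02-fold at 1452661_at (log2 difference -1.04, SE 0.14, limma adjusted p = 5.47e-07), and Bmp6. Bmp6 read 203 ± 27.3 in control kidneys against 34.8 ± 9.71 in control livers (SD, n = 10 each), so the kidney was at least 4.06-fold higher. Every kidney lay above every liver for Bmp6, with the lowest kidney at 157.4 and the highest liver at 45.0. As for Hfe, the share of all probe sets so separated was not computed. Fth1 was called 1.12-fold higher in liver at 1448771_a_at (log2 difference 0.17, adjusted p = 0.00877), but its log2 difference was -0.64 with quantile normalization, which moved the median difference of all probe sets by 0.1, and it was not called with median centring.

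Other genes of iron and heme handling were read by their highest probe set in 6 lists. Of 77 genes listed, 66 were tested in liver, of which 9 rose, 12 fell and 45 were not called. Over all 9976 genes tested in liver, 6.45% were called higher and 7.72% lower. In kidney 0 of 57 tested were called with limma, against 2.17% called higher and 1.57% called lower of all 10083 genes. Of the 57, 14 had an unadjusted limma p under 0.05, and the share of all genes at that threshold was not computed. The genes with the highest kidney signal in each list were Id2, Il6st, Lrp2, Aco1, Alas1 and Abcg2, with adjusted p between 0.301 and 0.859. Of these, the transporter Abcg2 read 5259 ± 299 in control and 4961 ± 355 in PB kidneys (SD, n = 10 each).

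Iron importers and reductases held the widest called falls of the 6 lists. In the list of other iron transport, reduction and ferritin turnover, 1 of 14 tested genes rose and 3 fell (median log2 difference -0.08, against -0.02 over all genes). The shares of all genes called were 6.45% higher and 7.72% lower. Scara5, a receptor for ferritin, had a log2 difference of -1.85 (SE 0.31, limma adjusted p = 0.000264), and 4 of 10 PB livers lay below all controls. Steap4, a metalloreductase, fell from 2681 ± 1234 to 861 ± 296 (SD, n = 10 each) or 3.11-fold (adjusted p = 0.000264), and Slc39a14, the importer ZIP14 that takes up iron not bound to transferrin, fell from 1214 ± 398 to 718 ± 123 (adjusted p = 0.00348). Slc25a37, mitoferrin 1, which carries iron into mitochondria, rose from 260.2 ± 32.1 to 384 ± 56.3 (adjusted p = 9.81e-05), and all 10 PB livers lay above all controls.

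Most genes between BMP or interleukin 6 and hepcidin were not called. Of all genes tested in liver, 6.45% were called higher and 7.72% lower. In the BMP and SMAD list 2 of 16 tested genes rose, 3 fell and 11 were not called (median -0.11). The type I receptor Acvr1 rose from 282 ± 59.9 to 360.3 ± 47.8 and the coreceptor Neo1 from 168 ± 22.6 to 201 ± 12.7, whereas the target gene Id2 fell from 3611 ± 703 to 2393 ± 782 and the transducer Smad1 from 470.4 ± 83.0 to 373 ± 34.2 (SD, n = 10 each, limma adjusted p from 0.00882 to 0.025). The Neo1 call was lost with median centring (adjusted p = 0.0566). The fall of Smad4 was 0.16 on the log2 scale and was lost in 6 of 20 fits without 1 array. The BMP target Id1 was not called (log2 difference -0.27, adjusted p = 0.343).

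In the list of interleukin 6 and acute phase, 0 of 10 tested genes rose, 3 fell and 7 were not called. The median log2 difference was -0.45, against -0.02 over all genes, of which 7.72% were called lower. The receptor Il6ra fell from 178 ± 79.3 to 98.6 ± 21.6 and Stat3, the transducer, from 992 ± 235 to 634 ± 81.2 (SD, n = 10 each, limma adjusted p = 0.0042 and 0.000581), with 7 of 10 PB livers below all controls in each. The fibrinogen gene Fgb fell by 0.29 on the log2 scale (adjusted p = 0.00574). The Fgb call was lost with all 40 arrays in 1 fit (adjusted p = 0.818) and that of Il6ra with Student's t on linear signal (adjusted p = 0.0566). The acute phase gene Saa1 had a log2 difference of -1.25 with an SE of 0.63 and was not called (adjusted p = 0.206).

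In the lists of iron sensing and of heme synthesis the called genes were higher. Over all genes tested in liver 6.45% were called higher and 7.72% lower. With 7 genes tested in each list, the lack of called falls is not a result about these lists. Of 7 tested genes of iron sensing and iron-sulfur clusters, 2 rose and 0 fell (median 0.10), Aco1, which encodes iron regulatory protein 1, from 5092 ± 533 to 6152 ± 336 and Glrx5, a cluster assembly factor, from 2858 ± 250.2 to 3432 ± 205 (SD, n = 10 each, limma adjusted p = 0.00133 and 0.00129). Ireb2, which encodes iron regulatory protein 2, read 532 ± 77.1 and 566 ± 42.8 and was not called (adjusted p = 0.425). Of 7 heme synthesis genes, 2 rose and 0 fell (median 0.15). Alad rose from 3097 ± 281 to 3580.2 ± 341 (adjusted p = 0.0236), a call lost without the filter and with median centring. Alas1, the rate-limiting enzyme, had a log2 difference of 1.51 (SE 0.46, adjusted p = 0.0325) that was lost in 5 of 14 alternative fits and in 9 of 20 fits without 1 array.

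Heme breakdown, scavenging and transport held 2 rises and 3 falls among 12 tested genes (median -0.10), where 6.45% of all genes were called higher and 7.72% lower. The heme transporter Slc48a1 rose from 236 ± 26.2 to 305 ± 26.1 and the biliverdin reductase gene Blvrb from 849.7 ± 119 to 1059 ± 150.3 (SD, n = 10 each, limma adjusted p = 0.000671 and 0.0154). Lrp1, a receptor that clears heme bound to hemopexin, fell from 1199 ± 165 to 1000.1 ± 110.5 (adjusted p = 0.0297), a call lost in 5 of 20 fits without 1 array. The exporter Abcg2 fell from 1673 ± 157 to 1412 ± 113 (SD, n = 10 each, adjusted p = 0.00643), with 8 of 10 PB livers below all controls. The hemoglobin scavenger Cd163, which macrophages carry, went from 189.5 ± 62.4 to 132 ± 31.8 (adjusted p = 0.0486), a call lost in 15 of 20 fits without 1 array. Of the red cell markers only Alas2 was tested in liver, at 1192 ± 176 in control and 1181 ± 69.5 in PB livers (adjusted p = 0.999).

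**Figure D5:**
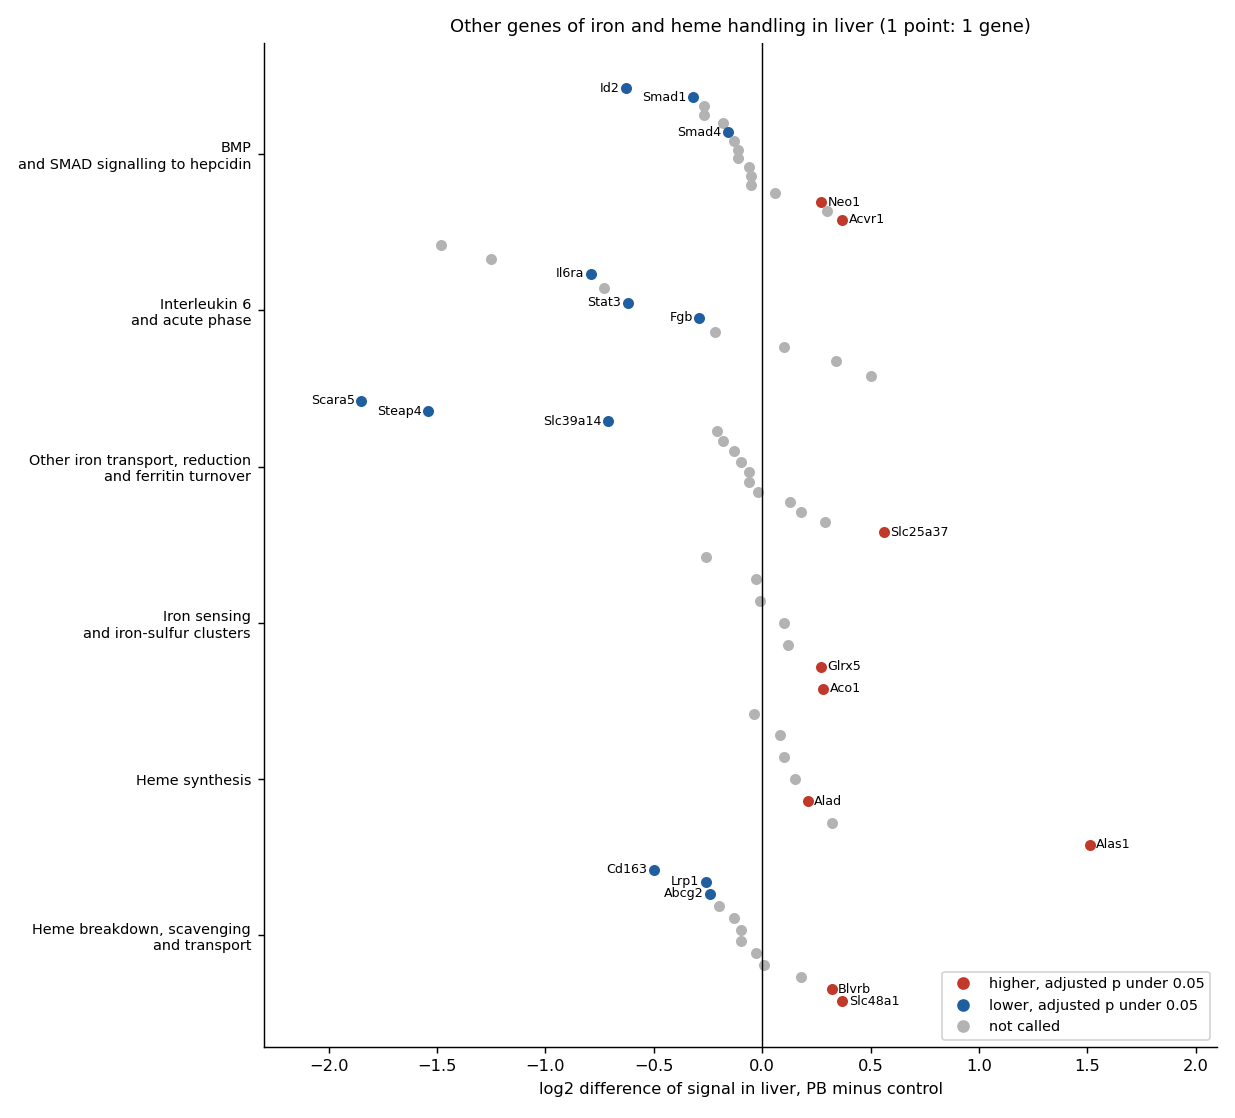
Log2 difference of signal in liver, PB minus control, for the 66 tested genes of the 6 lists of iron and heme handling, each point 1 gene by its highest probe set; red and blue points passed an adjusted p of 0.05 and are named. The points farthest from 0 among those called are Scara5 at -1.85 and Steap4 at -1.54 on the left and Alas1 at 1.51 on the right.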

How the data were processed

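The authors made the deposited intensity values as MAS5 signals, with every array scaled so that its trimmed mean was 150; GCOS and MAS5 stand in the submitters' processing notes, and their versions are not given in the sources used here. Arrays were grouped by tissue, treatment and donor number from the labels, and the number of animals limits the precision. The members, gene lists and tests were chosen with earlier results of these data known. The annotation gave 1 symbol for 34945 of 45037 probe sets, several for 932 and none for 9160. Tests used R 4.3.3 with limma 3.58.1 (lmFit, eBayes with trend, two-sided) on log2 signals with a floor of 1 and a filter of 50, with Benjamini-Hochberg adjustment across all probe sets tested. Named genes were all members, up to 4 genes per list with the largest called changes or, where none was called, the gene with the highest signal, and the 3 genes most like Tfrc and Hamp. Genes named beyond this rule (Smad4, Id1, Ireb2, Saa1, Alas2, Stab2, Alb and Ttr) were picked after their values were seen. Relations across livers used permutation within treatment groups with 100000 resamples. Liver and kidney share a donor number in the labels, which pairs them. The reported fits of the tissue difference and of liver against kidney left out this pairing, and fits with the animal as a block were alternatives. Deviations from the group mean over 16344 probe sets had a median r of 0.079 (-0.0677 to 0.188) within an animal and of -0.00943 across animals. On simulated data with 1.5-fold, 2-fold and 4-fold changes, the liver test on 19160 probe sets recovered 70.5%, 93.0% and 100%, with 5.85% false calls. The kidney test on 19224 recovered 93.5%, 100% and 100%, with 3.92% false calls. The test of the difference between tissues on 22046 recovered 69.5%, 97.3% and 100%, with 9.09% false calls. The test of liver against kidney in control mice on 19347 recovered 83.9%, 94.2% and 98.8%, with 5.58% false calls. Every simulated array was drawn independently of the others, so these shares cannot check the fits that left out the pairing. Fewer probe sets were changed in the simulation than were called in the real data. Python 3.11.15 with NumPy 2.4.6, SciPy 1.17.1, pandas 2.3.3, Biopython 1.88 and matplotlib 3.10.9 was used for counts, promoters and plots. Methylation, chromatin and protein data of the study were not analysed here.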

Additional observations from a re-analysis of the deposited data

Results flagged for a closer look

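The PB effect differed between liver and kidney by the limma interaction test for both tested Tfrc probe sets (1.00 at 1452661_at and 1.13 at 1422966_a_at on the log2 scale), for Hfe 1422645_at (0.44) and for Fth1 1448771_a_at (0.28), with the adjusted p given above.

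Of 42 groups of 10 signals of the member probe sets, 4 held a sample far from the others by Dixon's criterion, which chance gives in about 1 of 20 groups. PB kidney 14 had the highest Fth1 signal at both probe sets, 14950.3 at 1448771_a_at and 13537.6 at 1427021_s_at, against 13078.8 and 10261.7 in the next kidney. PB liver 15 read 4045.4 for Hamp2 1436643_x_at, against 2322.4 in the next liver. Control liver 8 read 493.5 for Hfe 1422645_at, against 614.5 in the next, and the Hfe call held without it.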

How the results depend on the processing

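In liver, 5 member probe sets were called higher and 1 lower. With the study's thresholds (unadjusted p up to 0.001, ratio from 1.5), both with the limma p and with Student's t on linear signal (the methods name a t-test without its scale), 2 were higher and 0 lower, both of them Tfrc. The lower count was also 0 without the filter, without the trend in eBayes and with all 40 arrays in 1 fit, and 0 to 1 over the fits without 1 array. Student's t on linear signal after Benjamini-Hochberg adjustment called 5 higher and 1 lower. In kidney all alternatives called 0. For the difference between tissues, the count more negative in liver went from 0 to 1 (Hamp2) with a filter at 100, quantile normalization, median centring, either replicate block, and without control mouse 5, an alternative chosen after seeing the data; the blocks changed no other call. Between the tissues of control mice, 5 probe sets instead of 3 were lower in liver with quantile normalization, where Fth1 read -0.64 (1448771_a_at) and -0.60 (1427021_s_at) on the log2 scale; the cause was not tested. The Hamp and Hamp2 relation was 0.47 without the 2 farthest livers, 0.59 in control and 0.75 in PB livers. Signals under 50 limit Bmp6 in liver, Hamp and Hamp2 in kidney and 1 Tfrc probe set throughout.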
